A study of Mus musculus with 17 samples.

Results

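Accessible chromatin was followed around 4 microRNA genes of inflammation, Mir155, Mir146, Mir21a and Mir223, and along Vmp1, the gene whose last part overlaps the Mir21a transcription unit. Every peak within 50 kb of a hairpin, or over the body of Vmp1, was taken from 17 ATAC-seq peak lists, which gave 659 peaks over the lists. Peaks that overlapped were merged into elements, and an element was kept where at least 2 lists held it among their best 24389 peaks. This left 30 of 34180 such elements of the genome: 6 at Mir155, 7 at Mir146, 15 at Mir21a with Vmp1 and 2 at Mir223. The other 43 merged peaks of these windows were not among the best 24389 peaks of 2 lists, and 11 of them were seen in 1 list. The loci were selected on measured values of these samples: an element in an intron of Vmp1 had already been seen to open at 1 h of LPS, so its LPS differences are given as a description, with no test.

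All lists came from macrophages grown from bone marrow (BMDMs) for 7 days in L929-conditioned medium, taken from male C57Bl6/J mice aged 6 to 12 weeks. WT cells came from wild-type littermates, labelled wt. KO cells, labelled cre, came from mice without Nur77 (Nr4a1) in the whole body, bred from a CMV-driven Cre line and a loxP-flanked Nr4a1 line and afterwards freed of Cre. Cells were untreated (0 h) or given 100 ng/ml lipopolysaccharide (LPS), the cell wall component that triggers Toll-like receptor 4, for 1 or 18 h. There were 3 lists in each of WT 0 h, WT 18 h, KO 0 h, KO 1 h and KO 18 h, and 2 in WT 1 h, of which the labels call one replicate 1-2.

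The lists held 24389 to 71456 peaks, at a recovered depth of 0.382 to 9.75 background reads per kb. The 0 h lists reached 0.72 to 9.75, the 1 h lists 0.382 to 4.14 and the 18 h lists 1.1 to 8.38. The WT lists reached 5.11 to 9.75 at 0 h, 0.382 to 1.61 at 1 h and 4.62 to 8.38 at 18 h. The KO lists at 18 h reached 1.1 to 1.76. Within WT at 1 h against 0 h, and between KO and WT at 18 h, a difference cannot be told apart from one in depth. One list, KO 18 h replicate 1, stood apart, with a median peak width of 148 bp against 365 to 901 bp in the other lists, and 18 h values that it moves by over 1.5 times or whose call it decides are also given without it. Of 8 macrophage markers, 5, among them Csf1r and Spi1, had a promoter peak in all 17 lists, and the other 3 in 12 to 16. Cd79a of B cells, Cd3e and Cd3g of T cells, Ly6g and Elane of neutrophils and Col1a2 of fibroblasts had none in any list, while Lck had one in 17 lists, Col1a1 in 14 and Pdgfra in 11. The 6 exons of Nr4a1 that its coding transcripts share away from the promoter carried a peak in 0 of 17 lists, WT included, so the lists cannot check the genotype labels.

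MicroRNAs are cut from longer primary transcripts as hairpins, and their mature strand pairs with messenger RNAs through the seed, bases 2 to 8 from its 5′ end. miR-155 is made from the non-coding gene Mir155hg and is known as a microRNA that LPS induces in macrophages and that promotes inflammation, whereas miR-146a is known to restrain Toll-like receptor signalling through Traf6 and Irak1. miR-21 is known to act on Pdcd4 and is transcribed from promoters inside the gene Vmp1, whose protein takes part in autophagy. miR-223 is a microRNA of myeloid cells, high in neutrophils. On GRCm38 the hairpins lie at chr16:84714140-84714204 (Mir155, plus strand), chr11:43374397-43374461 (Mir146, minus strand), chr11:86584067-86584158 (Mir21a, minus strand) and chrX:96242817-96242926 (Mir223, plus strand), and Vmp1 at chr11:86583865-86683836 on the minus strand. The mature sequences from RefSeq (GRCm38.p6) are shown with the seed in capitals, and the 4 seeds all differ.
mmu-miR-155-5p: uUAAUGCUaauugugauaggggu
mmu-miR-146a-5p: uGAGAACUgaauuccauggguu
mmu-miR-21a-5p: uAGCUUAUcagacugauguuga
mmu-miR-223-3p: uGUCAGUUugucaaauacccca

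Elements that the results turn on are printed below as the 201 bases around the summit of their best-ranked peak, from the plus strand of GRCm38. Capitals mark matches to 6 motifs sought on both strands: AP-1 (TGACTCA), NF-kB and ISRE, the site of interferon regulatory factors (both given by name), NBRE (AAAGGTCA, the monomer site of Nur77), PU.1 (GAGGAAGT) and C/EBP (TTACNNAA or TTGCNNAA). The first is the element in an intron of Mrpl39 behind Mir155, chr16:84720728-84720928. The next pair lies in introns of Vmp1, chr11:86618646-86618846 and chr11:86624403-86624603, followed by the strongest summit upstream of the Mir21a hairpin, also in an intron of Vmp1, chr11:86586999-86587199. The last is the start of the Mir223 host transcript F630028O10Rik, chrX:96239730-96239930.
Mrpl39 intron: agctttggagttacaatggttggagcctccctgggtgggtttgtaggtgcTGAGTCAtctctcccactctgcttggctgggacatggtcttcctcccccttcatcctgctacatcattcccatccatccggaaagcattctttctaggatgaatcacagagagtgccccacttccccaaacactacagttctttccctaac
Vmp1 intron, 34.6 kb upstream of Mir21a: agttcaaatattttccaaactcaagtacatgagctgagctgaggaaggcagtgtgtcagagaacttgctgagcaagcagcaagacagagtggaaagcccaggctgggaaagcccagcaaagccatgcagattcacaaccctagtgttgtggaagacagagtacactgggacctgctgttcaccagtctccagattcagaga
Vmp1 intron, 40 kb upstream of Mir21a: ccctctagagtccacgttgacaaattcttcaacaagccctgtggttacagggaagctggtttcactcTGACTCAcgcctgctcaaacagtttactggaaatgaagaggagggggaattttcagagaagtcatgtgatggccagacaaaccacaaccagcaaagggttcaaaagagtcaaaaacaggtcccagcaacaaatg
Mir21a upstream: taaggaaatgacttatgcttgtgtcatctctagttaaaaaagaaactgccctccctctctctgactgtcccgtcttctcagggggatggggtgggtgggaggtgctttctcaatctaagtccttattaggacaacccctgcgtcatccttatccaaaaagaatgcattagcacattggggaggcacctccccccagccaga
Mir223 host start: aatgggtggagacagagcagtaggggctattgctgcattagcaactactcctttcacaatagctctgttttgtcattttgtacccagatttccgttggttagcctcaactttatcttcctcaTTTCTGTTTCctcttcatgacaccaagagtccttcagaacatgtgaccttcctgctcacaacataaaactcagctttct

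An AP-1 match stood 50 bases before the summit in the Mrpl39 intron and 33 bases before it in the Vmp1 intron 40 kb upstream of Mir21a. An ISRE match began 22 bases after the summit at the Mir223 host start. The other 2 printed windows held none of the 6 motifs. Over the 30 elements, an AP-1 match was found in 8, 6 of them at Mir21a and Vmp1, against 16.2% of all 34180 windows of the same length. NF-kB letters were found in 2 elements, both at Mir146 (4.82% of all windows), ISRE in 1 (3.62%), NBRE in 1, the element 21 kb upstream of Mir146 (1.05%), PU.1 in 1 (7.72%) and C/EBP in 2 (16.9%). No window of the 30 held more than 1 of the 6 motifs. A match is a run of letters and not evidence of binding.

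Peaks were ranked inside each list by their p-value, with 1 as the best and ties given their mean rank. Each element then got a rank score, log2 of 24389 over its best rank, which is 0 where the list had no peak there among its best 24389. A score 1 higher means that the rank number is halved, and a difference in score is a change in the place of an element within its list, not in the number of reads. Bulk lists cannot tell fewer cells with an open element from less opening per cell. Each difference between groups was tested with limma over all 34180 elements, and an element was called at an adjusted p under 0.05. Of the 30 elements, 15 were held, that is listed among the best 24389 peaks, by no 0 h list, against 18.9% of all elements. They entered the set through LPS lists alone, so their score could not fall from 0 h, and their differences from 0 h are given below as a description, with no p. Counts over the 30 include them and are given also for the other 15. Distances are from the hairpin to the middle of the element along the microRNA strand.

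**Figure D1:**
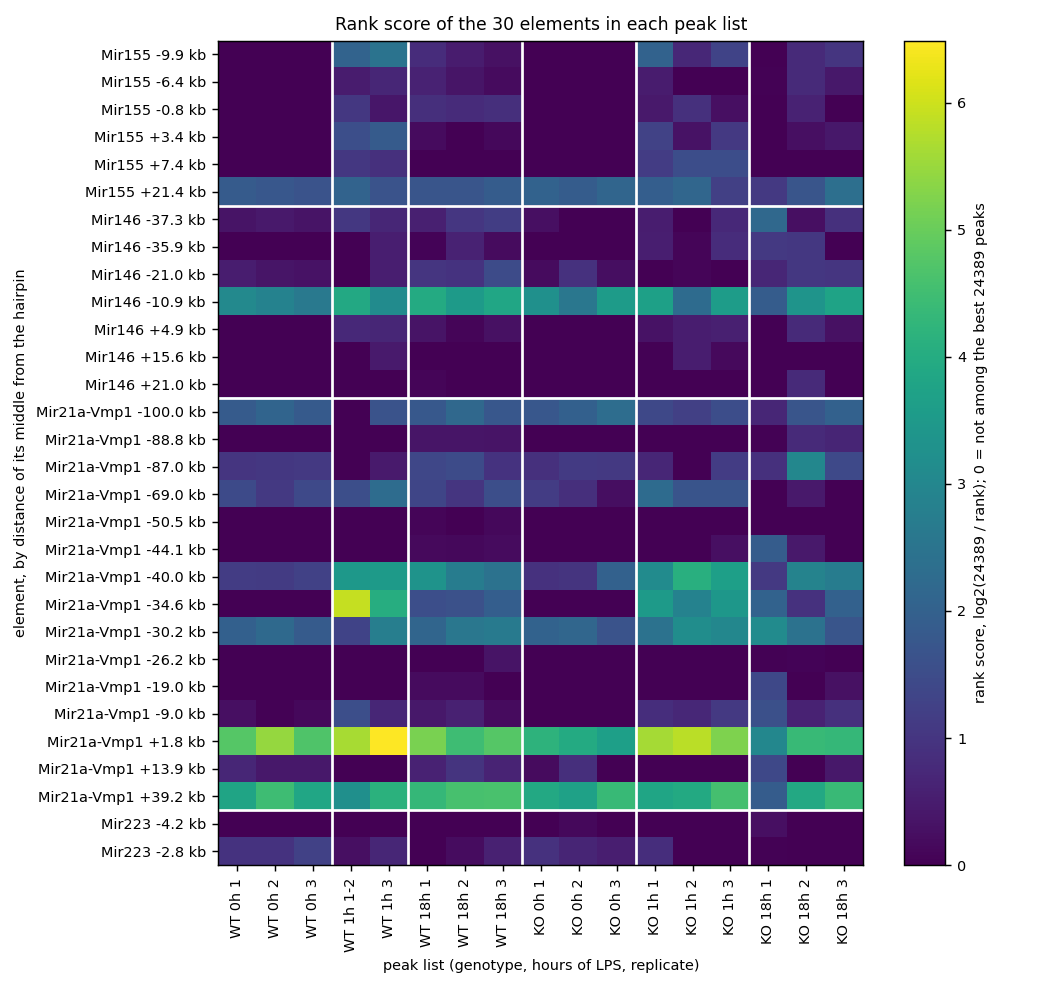
Rank score (colour, log2 scale, 0 where the element was not among the best 24389 peaks) of the 30 elements (rows, by locus and by distance from the hairpin in kb, upstream negative) in each of the 17 peak lists (columns, by genotype, hours of LPS and replicate). The first 5 Mir155 rows are at 0 in all 6 lists at 0 h, and the Vmp1 row at -34.6 kb goes from 0 at 0 h to a mean of 4.97 in WT and 3.28 in KO at 1 h.

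How LPS changed these loci within 1 h was the first question. Of the 30 elements, 12 were called higher at 1 h than at 0 h and 2 lower, where 13.8% and 14.3% of all elements were called. Of the 12, 8 were among the 15 elements that no 0 h list held, which could not be lower. Of the 15 that a 0 h list held, all 4 higher calls were at Mir21a and Vmp1, and 2 were called lower, against 10.8% and 17.7% of the 27713 such elements of the genome. Of these 4, the wide element at the Mir21a hairpin and those 9.04 and 69.0 kb upstream lost their calls in other settings. With ranks relative to list length they differed by 0.93, 0.64 and 0.45 (adjusted p = 0.14, 0.12 and 0.32). With the best 10000 peaks they differed by 1.35, 0.07 and 0.57 and were not called. The calls were also lost where a peak had to cover at least 50% of its element. The call of the element 40 kb upstream was kept in each. Without the Vmp1 element already known to open, 11 of 29 were called higher. The median difference was 0.30 over the 30 elements and −0.02 over all 34180, and over the elements that a 0 h list held it was −0.02 for the 15 and −0.11 for all. At 149 elements within 50 kb of 41 other microRNA genes, 21 were called higher and 25 lower, with a median of −0.09. In 9 of the 30, or 8 of the 29 without it, every 1 h list lay above every 0 h list, against 8.58% of all elements, and this was so for 3 of the 15 that a 0 h list held, against 7.14%. By locus, 5 of 6 elements were called higher at Mir155 and 2 of 7 at Mir146, none of which a 0 h list held, 5 of 15 at Mir21a and Vmp1 (4 of 14 without the known element) and 0 of 2 at Mir223. With log2 depth as a covariate, 10 of the 30 were higher and 0 lower, against 9.89% and 6.82% of all elements. The exact permutation test called 10 higher, the known element among them, and 1 lower, against 10.2% and 12.4% of all elements, and did not call the elements 6.36 kb upstream of Mir155, 15.6 kb downstream of Mir146 and 2.80 kb upstream of Mir223.

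**Figure D2:**
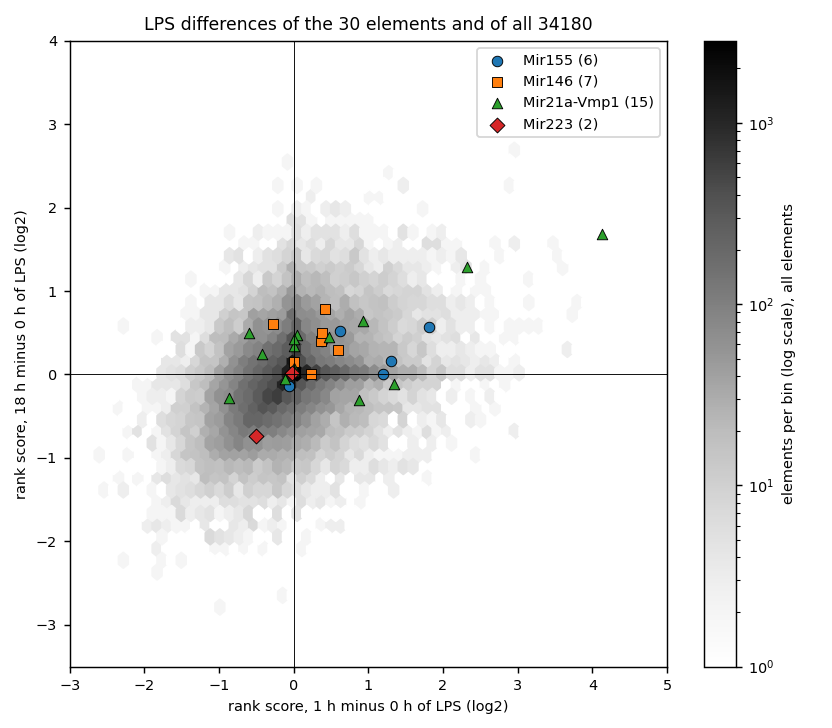
Difference in rank score at 1 h (horizontal axis, log2) and at 18 h (vertical axis, log2) of LPS, each against 0 h, for all 34180 elements (grey, number per bin on a log scale) and for the 30 elements (coloured by locus). The 2 Vmp1 triangles on the right differ by 4.13 and 2.32 at 1 h, and 4 of the Mir155 circles by 0.62 to 1.81. The 2 axes share the 0 h lists.

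At Mir155 the 5 elements other than the promoter of Mrpl39 were held by no 0 h list. The element over the start of Mir155hg (chr16:84702559-84705888, middle 9.92 kb upstream of the hairpin), the promoter region of the miR-155 precursor, was not among the best 24389 peaks of any 0 h list. In 3 of the 6 full 0 h lists it was present at ranks 51552.5 to 58301, and in the other 3 it was missing. At 1 h its rank was 5848.5 in WT replicate 1-2, 4392.5 in WT replicate 3, and 5956, 14876.5 and 9792.5 in the KO lists. All 5 lists at 1 h were thus above all 0 h lists, with both WT lists above the 3 KO lists. The score differed by 1.81 ± 0.22 (SE).

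At 18 h the same element stood at ranks 13681, 17413 and 19844.5 in WT and at 28007, 14306 and 12164 in KO. These ranks lie below those of the WT 1 h lists, and the worst is that of KO 18 h replicate 1. The score differed from 0 h by 0.57 ± 0.21, and without KO 18 h replicate 1 by 0.71.

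Inside Mir155hg there were 2 more elements. The element over the hairpin itself (84712135 to 84714508) had no peak in any full 0 h list, although those lists hold 27429 to 71456 peaks. It was present in all 5 lists at 1 h at ranks of 11828, 18626, 18092, 13130 and 20242.5, and its score differed by 0.62 ± 0.15, or by 0.42 with depth as a covariate. At 18 h it was present in 5 of 6 lists, at ranks of 13332.5, 14104 and 13372 in WT and of 15965 and 26977.5 in KO, and differed by 0.52 ± 0.14.

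The element in the intron 6.36 kb upstream of the hairpin differed from 0 h by 0.38 ± 0.13 at 1 h and by 0.40 ± 0.13 at 18 h. It also had no peak in any full 0 h list and was present in all 11 LPS lists, in 2 of them below rank 24389 at 1 h. Over all left-out lists the difference ranged from 0.30 to 0.43 at 1 h and from 0.31 to 0.50 at 18 h.

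Downstream of the hairpin, over the end and in an intron of Mrpl39, which encodes a protein of the mitochondrial ribosome, 2 elements were among the best 24389 peaks of all 1 h lists and were low or past that rank at 18 h. The element 3.38 kb downstream (84715808 to 84719231) stood at ranks 8262.5 and 6757.5 in WT and 9993, 19586 and 11553 in KO at 1 h, with no peak in any full 0 h list. Its score differed from 0 h by 1.30 ± 0.15, while at 18 h its ranks were 18250.5 to 31974 and the difference was 0.17 ± 0.14.

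The element 7.38 kb downstream, in an intron of Mrpl39 (84719589 to 84723450), stood at ranks 11828 and 12996.5 in WT and 10922.5, 8383.5 and 8371.5 in KO at 1 h. Here all KO lists were above the WT lists. Its score differed from 0 h by 1.20 ± 0.10. At 18 h it was past rank 24389 in all 6 lists, at 24424.5 to 41191.5 in 5 and missing in KO replicate 1, and scored 0.

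The promoter of Mrpl39, 21.4 kb downstream, was open throughout. Its ranks were 5637 to 7735.5 at 0 h, 5574 to 10321.5 at 1 h and 4714.5 to 11542 at 18 h, and the groups overlapped. Its score differed by −0.07 ± 0.23 at 1 h (adjusted p = 0.91) and by −0.14 ± 0.22 at 18 h (adjusted p = 0.72), or by 0.02 at 18 h without KO replicate 1. Counting every peak of the full lists, the Mir155 window held 1 or 2 peaks in each of the 6 lists at 0 h, 8 and 20 in WT and 14 to 17 in KO at 1 h, and 4 to 13 at 18 h. Over all elements of the genome, 2.45% had no peak in any full 0 h list, against 4 of 6 at Mir155 and 6 of 30 at the 4 loci, all of which entered the set through LPS lists.

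**Figure D3:**
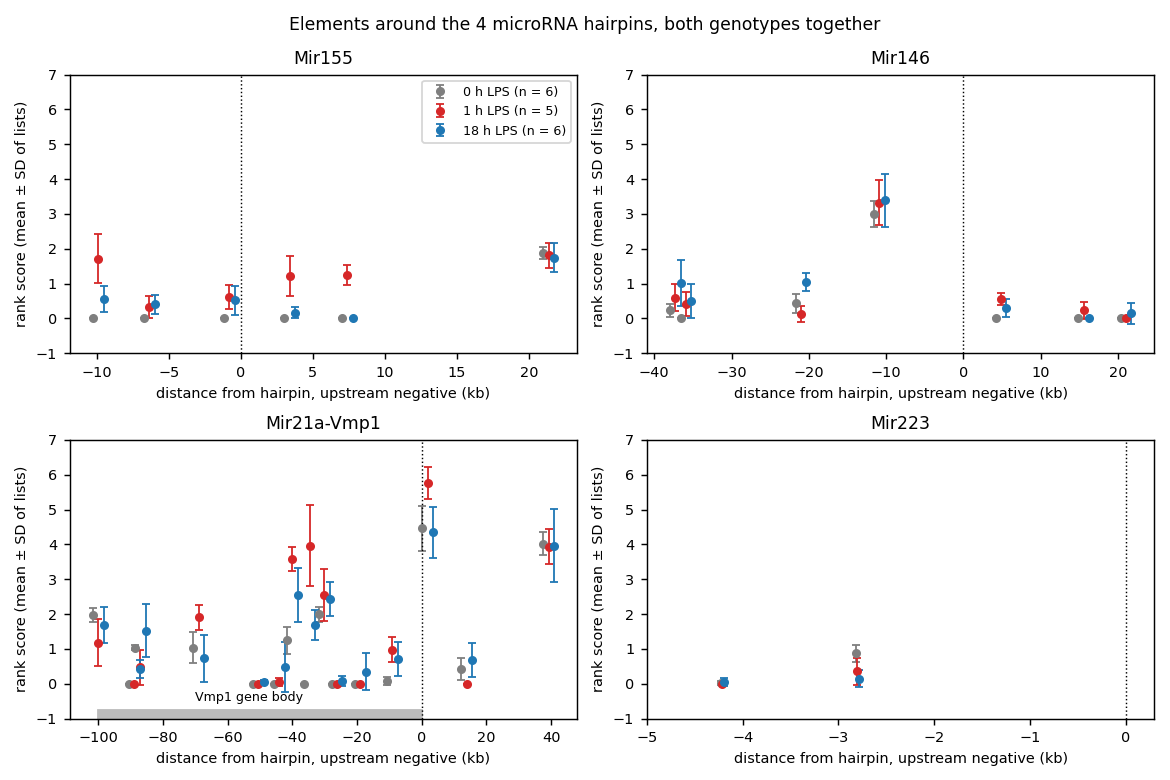
Mean rank score (vertical axis, log2; bars are SD over lists) of each element by distance from the hairpin (horizontal axis, kb, upstream negative, points moved sideways a little so that they do not hide each other), for 0 h (n = 6), 1 h (n = 5) and 18 h (n = 6) of LPS with WT and KO together; the dotted line is the hairpin. At Mir155 the grey 0 h points are at 0 for all elements but the Mrpl39 promoter.

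At Mir21a and Vmp1 the 0 h lists already held 7 to 9 of the 15 elements. Of the 14 elements other than the one known beforehand, 4 were called higher at 1 h, against 13.8% of all elements. The Vmp1 intron element 34.6 kb upstream of the hairpin (chr11:86618122-86619379) was the one known beforehand. Its rank was 26684.5, 31314 and 34532.5 in the full WT lists at 0 h and 34412 and 30918.5 in those of KO, where it was missing in replicate 3. At 1 h it stood at 404.5 and 1488 in WT and at 2114.5, 3320.5 and 2241 in KO, and at 18 h at 8232, 8052 and 6326 in WT and 5924.5, 12930.5 and 6086.5 in KO. It thus went from outside the best 24389 peaks to among the best 3320.5 in all 1 h lists, and stood between these levels at 18 h. The score differed by 4.13 at 1 h and 1.68 at 18 h.

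The neighbouring intron element 40 kb upstream of the hairpin (86623308 to 86624998), which the choice of the loci did not use, moved the same way from a higher start. Its ranks were 6079 to 12814.5 with a median of 10999 at 0 h. At 1 h they were 2228.5 and 2093.5 in WT and 2777, 1425.5 and 1921.5 in KO, above all 0 h lists. The score rose by 2.32 ± 0.33 (adjusted p = 5.2e-05), a call that held without any single list. At 18 h the ranks were 2410.5, 3664 and 4469.5 in WT and 11542, 3270 and 3706.5 in KO, where only KO replicate 1 fell among the 0 h lists. The difference was 1.29 ± 0.31 (adjusted p = 0.0058), and without that list 1.58. This 18 h call held without any single list. It was lost with ranks relative to list length, with the best 10000 peaks and where a peak had to cover at least 50% of its element. The exact permutation test did not call it at 18 h (adjusted p = 0.056).

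The hairpin of Mir21a lay in the broadest element of the loci, from 86575684 to 86589030 on chromosome 11, 13347 bp with several summits. The best rank in it was 554.5 to 1925 at 0 h, 492.5 and 272 in WT and 498, 436 and 645 in KO at 1 h, and 671.5 to 3026 at 18 h. It was in the best 3026 peaks of all lists. The 1 h lists overlapped the 0 h lists only through WT 0 h replicate 2. The score rose by 1.35 ± 0.35 at 1 h (adjusted p = 0.0077) and differed by −0.11 ± 0.33 at 18 h (adjusted p = 0.89). Without KO 18 h replicate 1 the 18 h difference turned to 0.11 (adjusted p = 0.86).

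Since this element is wide, its summits were grouped after its width was seen, joining summits within 500 bp, and are described without a test. The 3 groups 6.71 and 2.73 kb downstream and 2.82 kb upstream of the hairpin were present in all 17 lists. The summits 2.82 kb upstream, inside Vmp1 and before the hairpin, were those that set the 1 h difference, with the ranks just given at 1 h. At 0 h they ranked 894.5, 554.5 and 940.5 in WT and 1326.5, 1556.5 and 1925 in KO, and at 18 h 888.5 to 3026. The summits 2.73 kb downstream, beyond the end of Vmp1, ranked 2122.5 to 4206 at 0 h and 2866 to 6805 at 1 h. At 18 h they ranked 671.5, 1107.5 and 1013.5 in WT, above all 0 h lists, and 6567, 2029 and 2285 in KO. The summits 6.71 kb downstream ranked 3594.5 to 11828 over all lists.

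**Figure D4:**
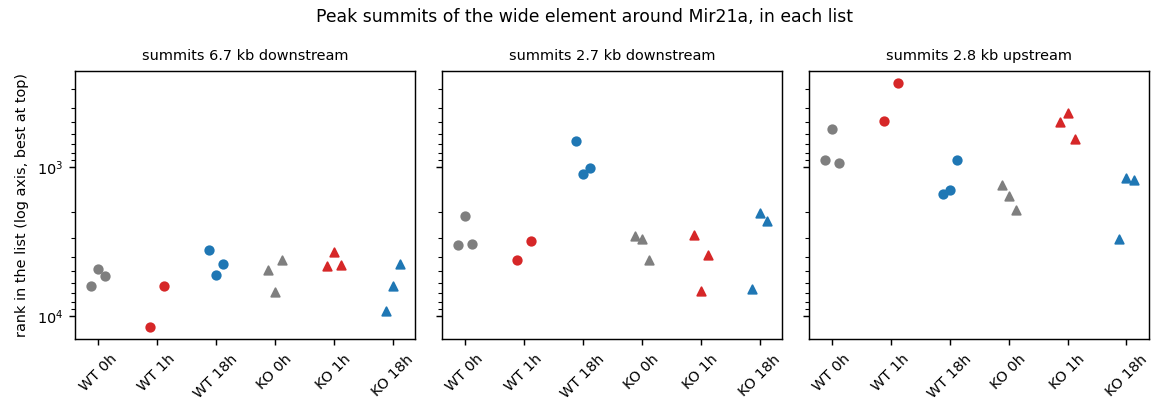
Rank in each list (vertical axis, log scale, best at the top) of the 3 groups of summits around the Mir21a hairpin that all 17 lists hold, by group of samples (horizontal axis; circles WT, triangles KO; grey 0 h, red 1 h, blue 18 h). The upstream summits rank 272 to 645 at 1 h, and the summits 2.7 kb downstream rank 671.5 to 1107.5 in WT at 18 h.

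Further along Vmp1, the intron element 9.04 kb upstream of the hairpin was at ranks 20424.5 to 24546.5 in 4 of the 0 h lists and missing in 2. It was at 8262.5 and 15059.5 in WT and 13649.5, 14876.5 and 11553 in KO at 1 h, above all 0 h lists, and rose by 0.93 ± 0.18 (adjusted p = 0.0011). At 18 h it differed by 0.64 ± 0.17 (adjusted p = 0.012). This call was lost with ranks relative to list length, with the best 10000 peaks and where a peak had to cover at least 50% of its element. The exact permutation test did not make it (adjusted p = 0.056). The intron element 69.0 kb upstream had a median rank of 11228 at 0 h and stood at 8262.5, 4971, 5078, 7527 and 7567 at 1 h. It rose by 0.87 ± 0.22 (adjusted p = 0.006). At 18 h it differed by −0.31 ± 0.20 (adjusted p = 0.3).

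The shared start region of Vmp1 and Ptrh2, the latter a peptidyl-tRNA hydrolase on the other strand, was lower at 1 h. Its ranks were 4865 to 7239.5 at 0 h, and at 1 h it was 7656 in WT replicate 3, missing in WT replicate 1-2, and 9178, 10441 and 8371.5 in KO, below all 0 h lists. The score fell by 0.86 (SE 0.29, adjusted p = 0.031). With depth as a covariate the difference was −0.75 and the call was lost (adjusted p = 0.20). Without WT 1 h replicate 1-2, the shallowest list, the difference was −0.44, and the call was also lost without WT 0 h replicate 1, 2 or 3, KO 0 h replicate 2 or 3 or KO 1 h replicate 1 or 2 (−0.89 to −0.79).

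Of the remaining elements, the promoter of Tubd1, a delta tubulin gene 39.2 kb downstream of the hairpin, ranked 994 to 6567 in all lists, and the intron element 30.2 kb upstream ranked 2689 to 9849.5. Neither was called at 1 or 18 h. The intron element 88.8 kb upstream was past rank 24389 or missing in all 0 h and 1 h lists and at 18990.5, 18770.5 and 19109 in WT and 23854.5, 14306 and 15381 in KO at 18 h, so that all 18 h lists were above all others. Its score differed from 0 h by 0.43 ± 0.10 at 18 h. The other 6 lay 13.9 kb downstream and 19.0 to 87.0 kb upstream of the hairpin, were in 2 to 15 of the 17 lists among the best 24389 peaks, and were not called. Without KO 18 h replicate 1, the difference at 18 h of the element 87.0 kb upstream, which all 0 h lists held, went from 0.49 to 0.71 and was called (adjusted p = 0.046). Among those that no 0 h list held, it went from 0.35 to 0.14 at the element 19.0 kb upstream and from 0.47 to 0.19 at the element 44.1 kb upstream.

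**Figure D5:**
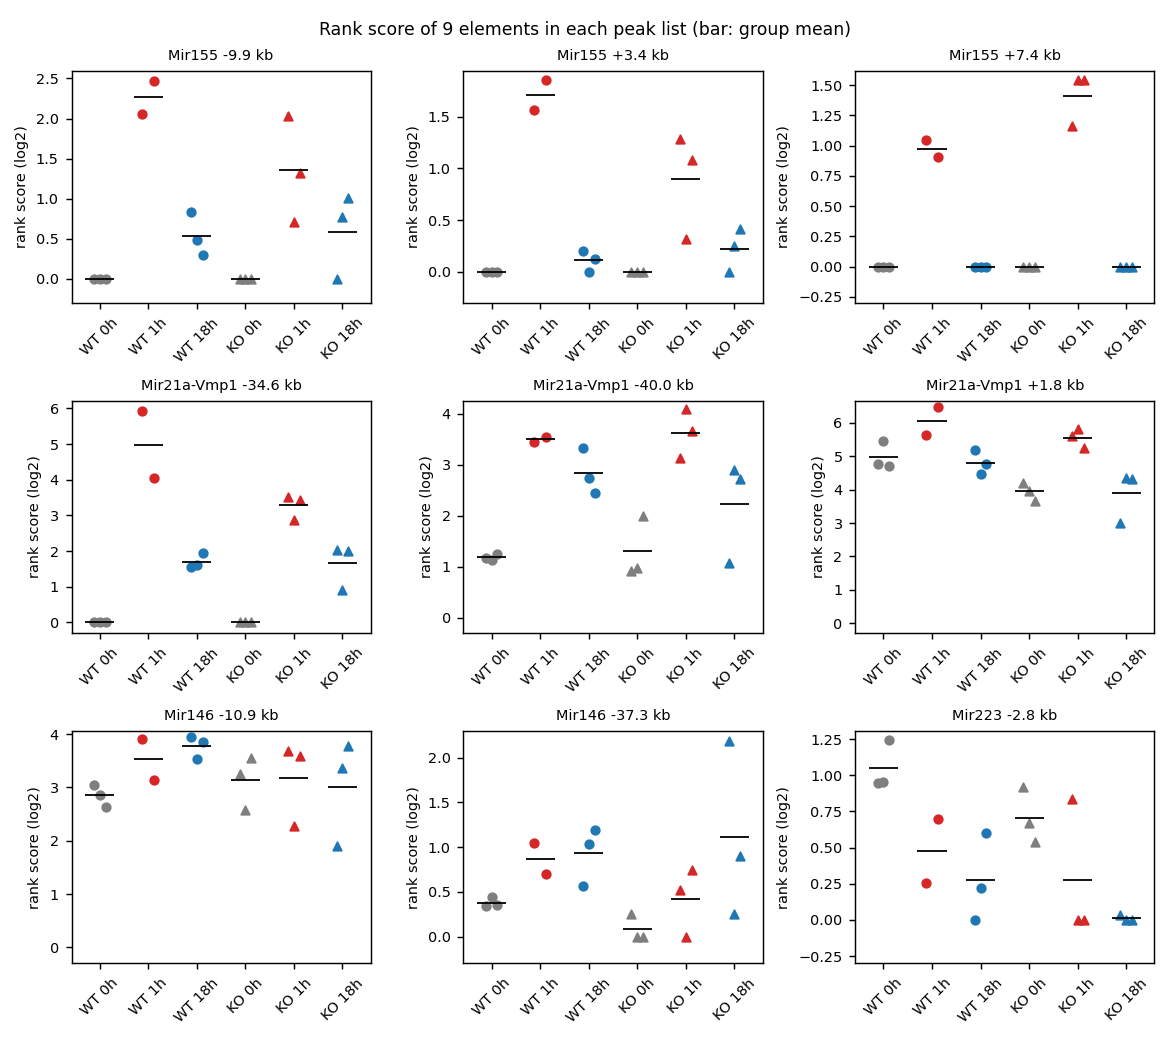
Rank score (vertical axis, log2) in each list for 9 elements, named by locus and distance from the hairpin in kb, by group of samples (horizontal axis; circles WT, triangles KO; grey 0 h, red 1 h, blue 18 h; the line is the group mean). The 3 Mir155 elements and the Vmp1 element at -34.6 kb are at 0 in all 0 h lists, and the Mir223 element is highest at 0 h.

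Around Mir146 the strongest element was open in all groups. It covers the start of the long non-coding RNA gene Gm12148 (chr11:43384530-43386195), 10.9 kb upstream of the Mir146 hairpin. Gm12148 is annotated on the plus strand, opposite to the hairpin. The ranks were 2082 to 4076.5 at 0 h, 1616.5 to 5022 at 1 h and 1574.5 to 6567 at 18 h, and the groups overlapped. The score differed by 0.37 ± 0.36 at 1 h (adjusted p = 0.5) and by 0.40 ± 0.34 at 18 h (adjusted p = 0.44). Without KO 18 h replicate 1, its lowest list, the 18 h difference was 0.68 (adjusted p = 0.094).

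Weaker elements lay around it. The element 4.86 kb downstream of the hairpin, the nearest to it, was past rank 24389 in 5 and missing in 1 of the 0 h lists. At 1 h it ranked 14417.5 and 15059.5 in WT and 19735, 17010.5 and 16571.5 in KO, above all 0 h lists, and the score differed by 0.59 ± 0.12. At 18 h the difference was 0.30 ± 0.11, and without KO 18 h replicate 1, where it was missing, 0.39. The element 15.6 kb downstream was present only in 4 of the 5 lists at 1 h, at ranks of 17010.5 to 23787. Its score differed by 0.24 ± 0.08, and over all left-out lists by 0.12 to 0.35.

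At 18 h the elements 21 and 37.3 kb upstream of the Mir146 hairpin were higher. The first ranked 12837.5 to 21202 at 0 h, with a median of 19132, and 12130.5, 12674.5 and 8684.5 in WT and 14937, 11750 and 12164 in KO at 18 h. It rose by 0.61 ± 0.16 (adjusted p = 0.0088), or by 0.27 with ranks relative to list length (adjusted p = 0.56). The exact permutation test did not call it at 18 h (adjusted p = 0.056). At 1 h it was in 4 of 5 lists and differed by −0.28 ± 0.17 (adjusted p = 0.23). The second rose by 0.79 ± 0.24 at 18 h (adjusted p = 0.026), or by 0.50 with ranks relative to list length (adjusted p = 0.25). The exact permutation test did not call it (adjusted p = 0.056). Its best rank, 5345.5, was in KO 18 h replicate 1. Without that list the difference was 0.52, and the call was lost without WT 0 h replicate 1 or 3, KO 0 h replicate 2 or 3 or WT 18 h replicate 2 or 3 (0.73 to 0.78). The 2 remaining elements, 35.9 kb upstream and 21 kb downstream, were not called.

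At Mir223 neither of the 2 elements was called higher at 1 or 18 h, where 13.8% and 10.8% of all elements were. The element over the start of F630028O10Rik (chrX:96239291-96240740), the transcript that overlaps the Mir223 hairpin on the same strand, 2.80 kb upstream of it, was in all 6 lists at 0 h at ranks of 12645.5, 12626.5 and 10303.5 in WT and 12921, 15343 and 16815 in KO. At 1 h it was at 20457 and 15059.5 in WT and 13649.5, 26728.5 and 25453 in KO. At 18 h it was at 26688.5, 20897.5 and 16063.5 in WT and at 23854.5 in KO replicate 1, and missing in the other 2 KO lists. The score fell by 0.50 at 1 h (SE 0.17, adjusted p = 0.036) and by 0.73 at 18 h (SE 0.16, adjusted p = 0.0028). The 18 h call held without any single list. It was lost with the best 10000 peaks, among which no list held this element, and where a peak had to cover at least 50% of its element. The 1 h call was lost without WT 0 h replicate 3, WT 1 h replicate 1-2, KO 0 h replicate 1 or 2 or KO 1 h replicate 2 or 3 (−0.51 to −0.39), and with depth as a covariate the difference was −0.19. The second element, 4.21 kb upstream, was among the best 24389 peaks of 2 lists and was not called.

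After 18 h of LPS, 8 of the 30 elements were called higher than at 0 h and 1 lower, where 10.8% and 12.8% of all elements were called. Of the 8, 4 were among the 15 elements that no 0 h list held. Of the other 15, 4 were higher and 1 lower, against 8.64% and 15.8% of the 27713 elements that a 0 h list held. These 4 higher calls were all lost with ranks relative to list length and with the best 10000 peaks. The exact permutation test did not call them either (adjusted p = 0.056 for each). The lower call was lost with the best 10000 peaks and kept in the others. Without the Vmp1 element known to open, 7 of 29 were higher. The median difference was 0.32 over the 30 elements and 0 over all, and 0.25 and −0.06 over those that a 0 h list held. The 149 elements of other microRNA genes gave 13 higher and 14 lower calls and a median of −0.03. Every 18 h list lay above every 0 h list at 3 elements, or at 2 without the known one, against 5.53% of all elements, and at 0 of the 15 that a 0 h list held, against 4.49%. Without KO 18 h replicate 1 this was so at 7 elements, or at 6 without the known one, against 8.58% of all, and at 2 of the 15, against 7.18%. By locus, 2 were higher at Mir155, 2 at Mir146 and 4 at Mir21a and Vmp1 (3 without the known element). In all, 5 elements, or 4 without the known one, were called higher at both times, and the 2 comparisons share the 0 h lists. The share of all elements called at both times was not computed. The 2 of these at Mir155 and the known one were held by no 0 h list, so they could not be lower. Without KO 18 h replicate 1, 13 were higher and 1 lower, against 13.9% and 13.5% of all elements. Of the 29 elements other than the known one, the exact permutation test called 2 higher at 18 h, those 88.8 kb upstream of Mir21a and 6.36 kb upstream of Mir155, which no 0 h list held, and 1 lower, that 2.80 kb upstream of Mir223, against 6.27% and 8.65% of all elements.

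Since 15 of the 30 elements entered the set through LPS lists alone, a 0 h list had to hold fewer of the 30, and the numbers held are a description. All 3 WT lists at 0 h held 14 of them, and the KO lists 11 to 13 (mean 12.3 ± 1.15, SD). The mean after 1 h was 19.5 ± 3.54 over the 2 WT lists and 19.7 ± 1.53 over the 3 KO lists. The mean after 18 h was 24.3 ± 1.15 for WT and 21 ± 2 for KO. Over all deposited peaks the WT 0 h lists held 23 or 24 elements, and the WT 1 h lists lay on both sides of these with 17 and 26.

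Whether loss of Nur77 altered these loci was the second question. With the LPS times together, 0 of the 30 elements were called by limma between KO and WT, where 0.395% of all elements were called. At an unadjusted p under 0.05, 4 of the 30 differed in limma, against 9.43% of all elements, and 2 in an exact permutation test, against 6.97%, which also called 0. The largest differences were in the wide element at the Mir21a hairpin, −0.82 ± 0.28 (adjusted p = 0.31), in the Vmp1 intron element 69.0 kb upstream, −0.59 ± 0.17 (adjusted p = 0.21), and in the known Vmp1 element, −0.58 ± 0.24 (adjusted p = 0.44), all lower in KO. At Mir155 the element over the hairpin differed by −0.27 ± 0.12 (adjusted p = 0.49). The known Vmp1 element scored 0 in both genotypes at 0 h, 4.97 in WT and 3.28 in KO at 1 h, and 1.70 and 1.65 at 18 h. Its difference thus came mainly from the 1 h values, for which the loci were chosen and WT had 2 lists.

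The difference of 1 h from 0 h was compared between KO and WT in the same fit. It was called different by limma at 0 of the 29 elements other than the known one, against 0.0965% of all. At an unadjusted p under 0.05, 2 of the 29 differed in limma (6.93% of all elements) and 0 in the exact permutation test (3.59%). In the Vmp1 element 34.6 kb upstream, the score went from 0 ± 0 at 0 h to 4.97 ± 1.33 (n = 2) in WT and to 3.28 ± 0.35 (n = 3) in KO at 1 h. The KO response differed from that of WT by −1.69, given as a description, and the WT lists, 404.5 and 1488, were above the KO lists. At the element 3.38 kb downstream of Mir155 the responses were 1.71 in WT and 0.89 in KO (difference −0.81 ± 0.31, adjusted p = 0.58). At the Mrpl39 intron element, 7.38 kb downstream, they were 0.98 and 1.41 (difference 0.44 ± 0.20, adjusted p = 0.71). At the Mir155hg start they were 2.27 in WT and 1.35 in KO (difference −0.91 ± 0.44, adjusted p = 0.73).

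At 18 h the LPS response was called different at 0 of 30 elements, and at 0.0% of all 34180, by limma, with 2 of the 30 at an unadjusted p under 0.05 (6.35% of all elements) and 1 in the exact permutation test (3.59%). The 2 were the Vmp1 intron element 9.04 kb upstream of Mir21a, with responses of 0.25 in WT and 1.03 in KO (difference 0.78 ± 0.35, adjusted p = 0.77), and the element over the Mir155 hairpin, with 0.84 and 0.20 (difference −0.64 ± 0.28, adjusted p = 0.77). Without KO 18 h replicate 1 the KO responses of these were 0.75 and 0.31 and the differences 0.50 and −0.54, and 1 of the 30 was at an unadjusted p under 0.05, against 7.86% of all elements. The 2 WT 1 h lists, at 0.382 and 1.61 background reads per kb, carry the comparison at 1 h. An adjusted p above the threshold does not show that WT and KO responded alike.

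Elements elsewhere in the genome whose rank score followed these loci most closely over the 17 lists were taken by Pearson correlation, as a description, since lists of a group share their treatment and depth. For the Mir155hg start they lay 161147 bp from Inhba (r = 0.957), 24100 bp from Smarce1 (r = 0.950) and 28538 bp from Atp2b1 (r = 0.949), each the nearest protein-coding gene. For the Vmp1 element 34.6 kb upstream of Mir21a they lay 154547 bp from Tpra1, 3928 bp from Mmp14 and 45550 bp from Metrnl (r = 0.971 for each). For the Mir146 element 4.86 kb downstream they lay 31856 bp from Syt7 (r = 0.935), 95106 bp from Gm17555 (r = 0.912) and 1096 bp from Sqstm1 (r = 0.912). Of these, Inhba encodes a subunit of activin, Mmp14 a membrane-bound metalloprotease and Sqstm1 an autophagy receptor. No element of Mir223 was called higher at 1 h.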

How the data were processed

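ATAC-seq cuts open DNA with the Tn5 transposase. Per the labels and the study's methods, the authors trimmed reads with cutadapt 2.6, mapped them to mm10 with the snakeATAC pipeline, and called peaks in each sample separately. DiffBind 3.0.15 is also named in the submitters' processing notes, and its results were not used here. Each deposited list gives, per peak summit, an integer score, a fold ratio over background, and −log10 p-values and q-values. These deposited scores, ratios and −log10 p-values depend on depth, so they were used only for ranks within a list. No read counts per element were used. Read depth was recovered as background reads per kb from the deposited fold and −log10 p columns, as a relative index.

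Entries sharing an interval were collapsed (1001519 entries, 808470 intervals), ranked by the −log10 p-value and matched at the best 24389 per list, with ties at that rank broken at random (seed 1). Peaks sharing at least 1 bp were merged. Annotation was GENCODE on GRCm38, the same build as mm10. Rank scores were fitted over all 34180 elements with limma 3.58.1 (R 4.3.3; mean trend and robust prior, group means of the 6 groups), with Benjamini-Hochberg adjustment over all elements. LPS differences are means over the genotypes and KO against WT is the mean over the LPS times. The exact two-sided permutation test regrouped lists within genotype or within LPS time, with a smallest p of 0.005 (LPS and differences of responses) or 0.00025 (KO against WT). Both tests were checked on simulated data. The labels name the lists of a group as replicates and do not say which animals they came from, so p-values measure the spread between lists. The members, lists and tests were chosen with earlier results of these data known. By rule, the text names per window the element nearest the hairpin, the 3 best-ranked and the 2 largest differences in each main comparison; since the loci hold 30 elements, the others are given too, chosen after their values were seen. For the element of each window with the largest rise at 1 h, the 3 most correlated elements on another chromosome or over 1 Mb away are named. Sequences are printed for 5 of the 30 elements.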

Additional observations from a re-analysis of the deposited data

How the results depend on the processing

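At 1 h 14 of the 30 elements were called, 8 of them held by no 0 h list, against 28.1% of all elements. When any single list from a group of 3 was left out, 10 to 13 were called, against 23.1% to 26.8%. Read to the best 10000 peaks 3 were called, against 2.73% of all elements, and 2 where a peak had to cover at least 50% of its element, against 19.2%. At 18 h 9 were called, 4 of them held by no 0 h list, against 23.7% of all elements. With a list of the comparison left out 7 to 14 were called, against 19.3% to 27.3% (14 and 27.3% without KO 18 h replicate 1). The count was 0 with the best 10000 peaks (0.884% of all elements), 2 with 50% cover (11.5%) and 4 by the exact permutation test (14.9%). For KO against WT the count was 0, also with any list from a group of 3 left out, and 2 with 50% cover (2.32% of all elements). For the difference of 1 h responses it was 0, also with any such list left out, and 1 with 50% cover (0.652%). For that at 18 h it was 0, also with any such list left out, and 1 with 50% cover (1.69%). Leaving out a WT 1 h list leaves 1 in that group, so those fits are not counted here. With 50% cover, 2 differences at 1 h turned: the wide element at the Mir21a hairpin to −1.37 and the Vmp1 element 69.0 kb upstream to −0.67. The cause was not tested.

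The mean number of elements held fell with the best 10000 peaks to 6.67, 11 and 9.67 in WT and 6.33, 10 and 9 in KO (0, 1 and 18 h). With all deposited peaks it was 23.3, 21.5 and 29 in WT, lower at 1 h than at 0 h, and 17.3, 25 and 24.7 in KO. With ranks relative to list length the median difference of all elements at 1 h was −0.54, against −0.02, and 9 of the 30 were higher and 4 lower, against 7.76% and 31.1% of all elements. Deviations of same-numbered lists from their group means had correlations of −0.226 to 0.206 over 35 pairs. Over 85 pairs with other numbers they were −0.276 to 0.404. This cannot show whether the numbers mark a shared animal, so the lists were not paired. A fit with a replicate block, without WT 1 h replicate 1-2, called 11 at 1 h (20.7% of all elements), 9 at 18 h (23.2%) and 0 in the other comparisons (0 to 0.553%). Of the 11 calls at elements that a 0 h list held, 8 were kept without any one list and 3 were not. Over their 214 alternatives, 159 kept the call, 53 lost it and 2 turned. The 10 calls at elements that no 0 h list held, which could not be lower, are left out of these counts. Shallow lists, down to 3 reads at the lowest peak at 1 h, limit which weak elements can be seen.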
